A study of Bos taurus with 6 samples.

Results

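DDX4 and SYCP3 are germline genes, and the DNA methylation around them was compared between bovine sperm, monocytes and fibroblasts. DDX4, also named VASA, codes for an RNA helicase of the DEAD-box family that is made in germ cells, and SYCP3 codes for a protein of the lateral element of the synaptonemal complex, which holds homologous chromosomes during meiosis. Promoters of such germline genes are often rich in CpGs, and many are known to be methylated in somatic tissues and unmethylated in sperm. The members were the CpG positions covered by 5 to 500 reads in at least 1 library and lying within 100 kb of a region that the study drew for each gene. These drawn regions were chr20:23444293-23445093 for DDX4 and chr5:65888681-65888983 for SYCP3, on the UMD3.1 bovine genome. The rule found 190 positions at DDX4 and 135 at SYCP3, 325 of the 3503451 positions covered to this depth in any library. Of these, 89 at DDX4 and 76 at SYCP3 were covered in all 6 libraries, 165 of 1580644 over the genome. In a gene table of another assembly (ARS-UCD2.0), DDX4 (gene ID 493725) lay between the protein-coding genes IL31RA and SLC38A9, and SYCP3 (gene ID 615896) between CHPT1 and GNPTAB. Annotation of UMD3.1 was not used here, so positions are given without the exon, intron or promoter they fall in.

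Reduced representation bisulfite sequencing (RRBS) reads the methylation of CpGs in short fragments cut by the enzyme MspI, so that CpG-rich stretches are dense in data and the sequence between them is not measured. The 2 sperm libraries came from commercial semen straws of 2 Holstein bulls. The 2 monocyte libraries came from Holstein cows, as CD14-positive cells taken with beads from blood mononuclear cells. The 2 fibroblast libraries came from primary cultures of ear skin biopsies of adult Holstein females. Each library came from a different animal, and sperm and somatic cells also differed in sex and, for the fibroblasts, in culture to passage 11, so that cell type cannot be told apart from these. No treatment was applied. The reads summed over all listed CpGs ranged from 45884839 to 78890776 per library, and the median coverage of CpGs with 5 to 500 reads from 12 to 19. PCR reads carried no molecular identifiers, so that all intervals below cover counting error only.

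In both drawn regions, sperm was unmethylated and both somatic cell types were highly methylated. At DDX4, the average methylation over the 18 CpGs covered in all 6 libraries was 0% in both sperm libraries. Monocytes averaged 96.4% and 97.8%, and fibroblasts 87.1% and 87.2%. At SYCP3, again over 18 CpGs, sperm averaged 0.365% and 0.317%, monocytes 91.4% and 93.3%, and fibroblasts 82.2% and 74.9%. Sperm and somatic libraries did not overlap. The study picked these regions for low methylation in sperm, so that low sperm values here are a description and not independent evidence. The somatic minus sperm difference was 92.1 percentage points at DDX4 and 85.1 points at SYCP3. An exact two-sided permutation test on the library means gave p = 0.0667 for each, the smallest value that 2 against 4 libraries allow.

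**Figure D1:**
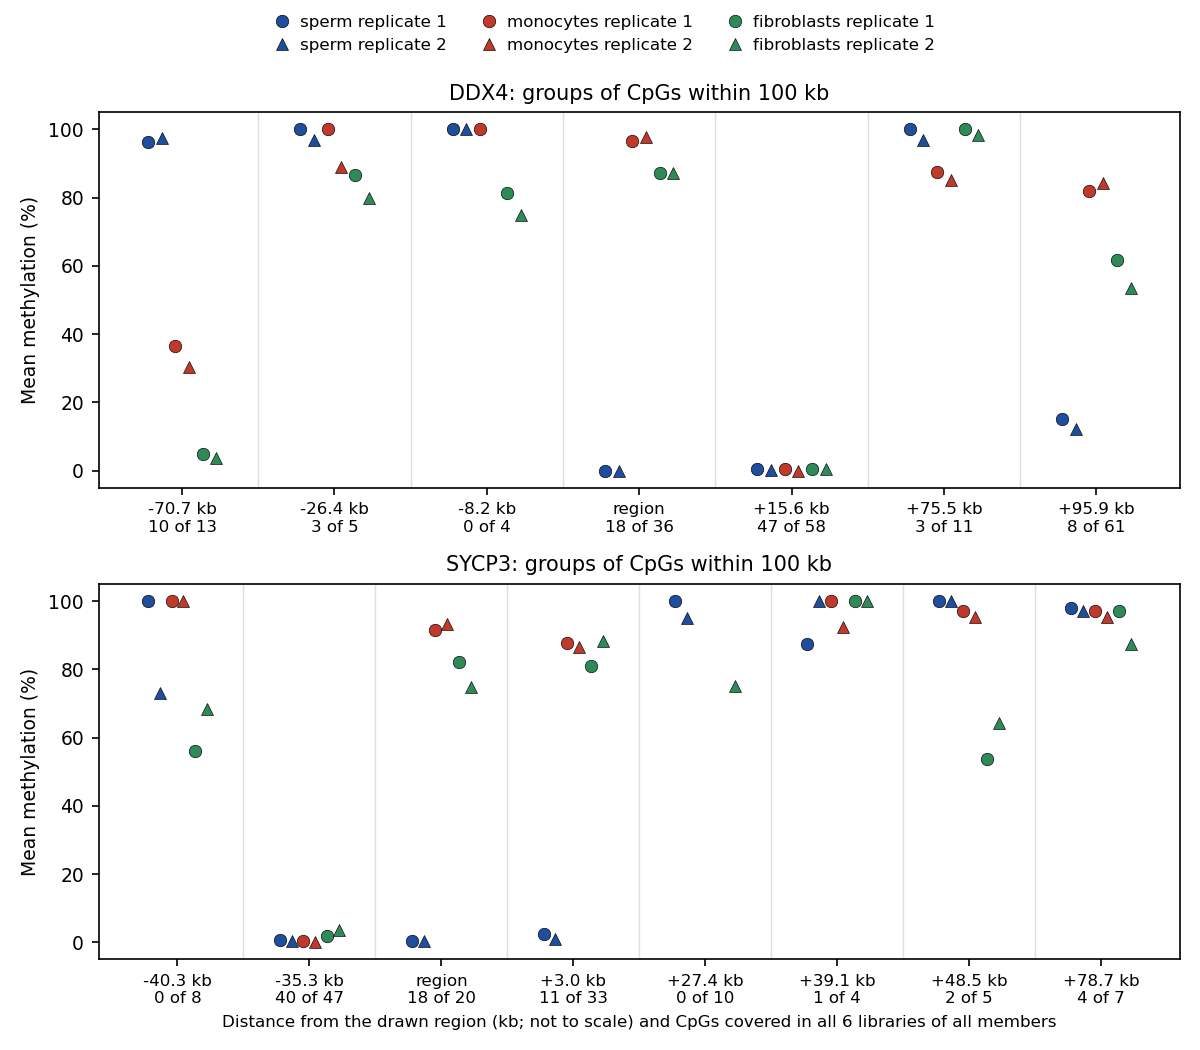
Average methylation (%) of each library in groups of CpGs no more than 1000 bp apart, at DDX4 (top) and SYCP3 (bottom), placed by the distance in kb from the drawn region to the nearest CpG of the group and not to scale. Averages are over CpGs covered by 5 to 500 reads in all 6 libraries, or over each library's own CpGs where no CpG was covered in all 6, and groups of 1 CpG are not drawn. The sperm points lie at 0% in the DDX4 region while the somatic points lie above 87%, and a further group of SYCP3 3.0 kb on shows the same split.

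The sequencing depth differed between the loci. In the DDX4 region the median reads per CpG were 6 and 9 for sperm, 5 and 15 for monocytes, 10 and 9 for fibroblasts. In the SYCP3 region they were 29 and 35 for sperm, 22 and 22 for monocytes, 30 and 33 for fibroblasts. The values of SYCP3 are therefore the more precise. For CpGs of the region covered in all 6 libraries without methylated sperm reads, a limit of 3 counts in the pooled reads was taken. It allows a methylation of 7.69 to 20% at DDX4 and of 4.05 to 13.6% at SYCP3. Some positions of the DDX4 region covered in fewer libraries allow more, such as 23444675 with 0 of 5 pooled sperm reads methylated. With at least 10 reads required in every library, 1 CpG of the DDX4 region was left, against 17 of SYCP3.

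CpG by CpG, the positions of both regions were differentially methylated CpGs (DMCs) between sperm and each somatic cell type. A DMC was called at an adjusted p below 0.01 and a difference of at least 25 points, in a logistic regression on the reads pooled by cell type (likelihood-ratio test). All 18 of 18 CpGs of each region were DMCs for monocytes against sperm, where 18.8% of all CpGs tested were called, and for fibroblasts against sperm, where 28.3% were called. With edgeR's quasi-likelihood test this held for 18 of 18 of each region in the first comparison, against 12.4% of all CpGs. In the second comparison it held for 17 of 18 of each region, against 14.8% of all CpGs. The CpGs that edgeR did not call were 23444994 (adjusted p = 0.0424) and 65888681 (adjusted p = 0.0220). Sperm-specific hypo-DMCs were defined as CpGs called in both sperm comparisons with sperm lower and not called between monocytes and fibroblasts. They numbered 16 of 18 in the DDX4 region and 15 of 18 in the SYCP3 region, against 8.98% of all CpGs tested. Over the whole loci they numbered 20 of 89 at DDX4 and 23 of 76 at SYCP3. The DDX4 run of hypo-DMCs extended from 23444347 to 23445067 (721 bp), and the SYCP3 run from 65888740 to 65888963 (224 bp). Of the 16752 such runs found over the genome, 15.6% held at least the 16 hypo-DMCs of DDX4 and 16.9% at least the 15 of SYCP3. CpGs of 1 fragment share reads, so that their number does not count independent observations. The study also chose the regions, where possible, for DMCs found by RRBS. These counts and ranks are therefore a description and not independent evidence.

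In sperm, methylated reads were rare at single positions as well. At the first CpG of the DDX4 region, 23444293, the sperm libraries had 0 of 5 and 1 of 9 reads methylated, and every other CpG of the region had no methylated sperm read. At SYCP3, sperm had 1 of 29 and 1 of 35 methylated reads at 65888810, 1 of 32 in the first library at 65888925 and 1 of 35 in the second at 65888963. All other CpGs of this region that were covered by at least 5 reads were at 0% in sperm.

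**Figure D2:**
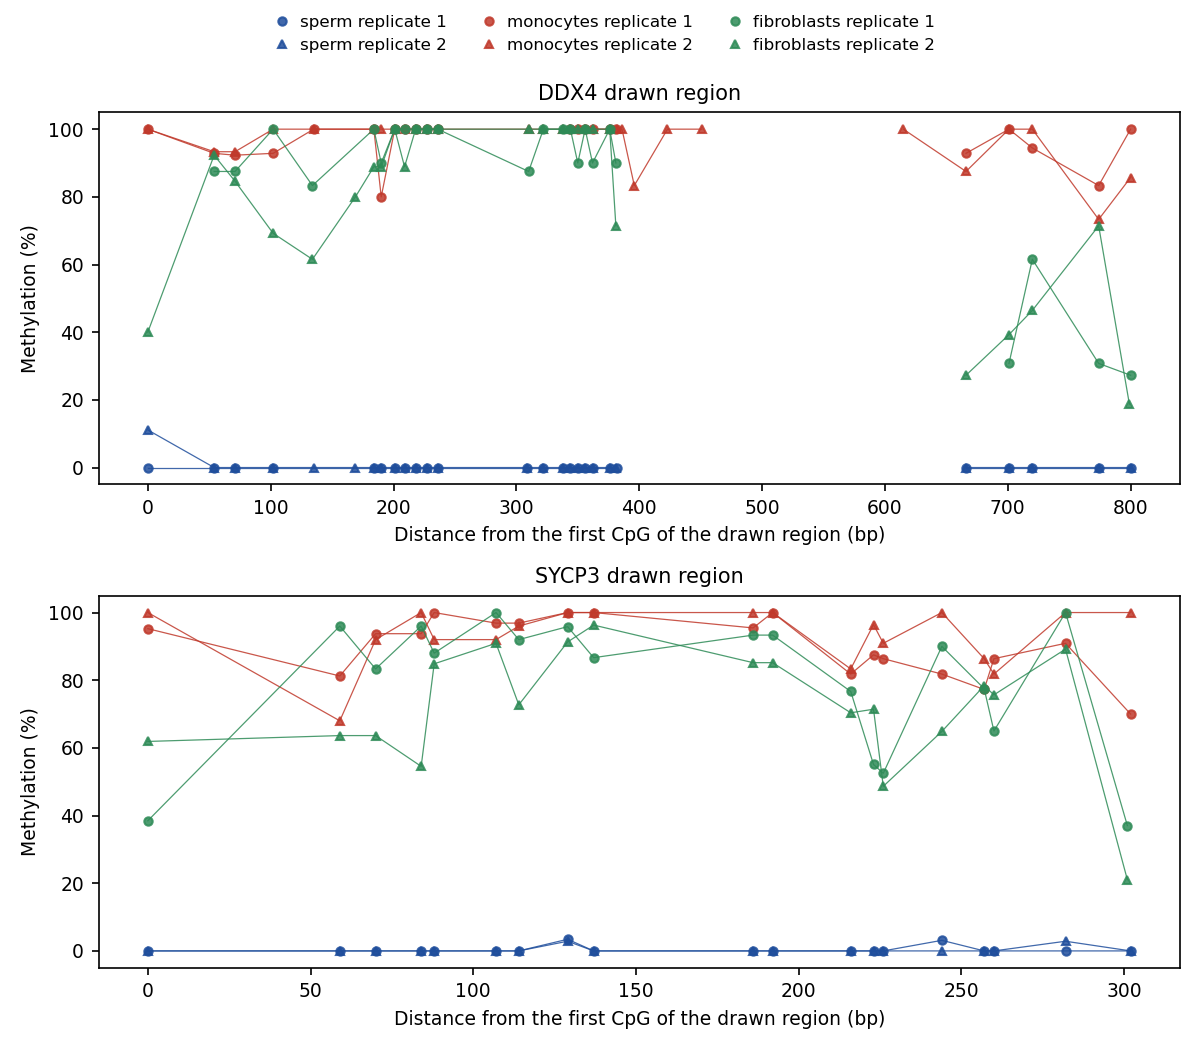
Methylation (%) of each CpG covered by 5 to 500 reads in a library, against the distance in bp from the first CpG of the DDX4 (top) and SYCP3 (bottom) drawn region, with 1 line per library. Sperm stays at or close to 0% and monocytes stay between 68 and 100%. Fibroblasts fall below monocytes mainly at the right end of the DDX4 region and at CpGs spread over the SYCP3 region.

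The next question was how far the sperm-unmethylated block reached. A run of neighbouring CpGs with an average sperm methylation below 20% (5 to 500 reads in both sperm libraries) was followed from each drawn region. At DDX4 the run extended from 23444293 to 23461712, 17420 bp with 72 CpGs. At SYCP3 it extended from 65851759 to 65892493, 40735 bp with 82 CpGs. Most of this length held no measured CpG, since the run crossed an unmeasured gap of 15.9 kb at DDX4 and of 35.4 kb at SYCP3. Ended at gaps of over 1000 bp, the runs were no longer than the drawn regions, 801 bp with 24 CpGs and 303 bp with 19 CpGs. The ends of the drawn regions are thus the ends of a measured stretch, and no border was seen there.

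The left border of the DDX4 block lay within 8.2 kb. The nearest measured CpG before the region, 23436097, had 11 of 11 and 14 of 14 methylated reads in sperm, at a distance of 8196 bp. Sperm was equally methylated at its neighbour 23436087, with 16 of 16 and 27 of 27 reads. Both positions were methylated in the somatic libraries that covered them. At 23436087 fibroblasts had 23 of 23 reads in both libraries and the first monocyte library 29 of 29. Further out, at 23435961, fibroblasts had 4 of 8 and 5 of 10 methylated reads, against 6 of 6 and 13 of 13 in sperm. Sperm thus went from fully methylated to unmethylated somewhere in these 8196 bp.

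On the right of DDX4 the next measured CpGs, 23460730 to 23461712, were unmethylated in every cell type. Their 47 CpGs covered in all 6 libraries averaged at most 0.594% in any library and held no DMC of any comparison. This group is part of the run by rule, but is not an extension of a sperm-specific state, since no cell type differed there. Between it and the drawn region, 5 CpGs from 23453249 to 23453298 were read only 2 or 3 times each in sperm, with 8 of 11 pooled reads methylated, and 9 of 10 in the somatic libraries. With such CpGs admitted, the DDX4 run ended at 23453249, 8957 bp from its start, at a position with 0 of 2 sperm reads methylated. The first CpG with at least 5 reads in both sperm libraries and a sperm methylation over 50% was 23520639 (15 of 15 pooled reads), 75.5 kb from the region.

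The unmethylated state of sperm at SYCP3 was found again in the next measured group, 65891987 to 65892497, which started 3004 bp after the drawn region. Whether its CpGs had a part in the choice of the drawn region is not given in the sources used here. Over its 11 CpGs covered in all 6 libraries, sperm averaged 2.5% and 1.11%, monocytes 87.8% and 86.7%, and fibroblasts 81.1% and 88.2%. Sperm and somatic libraries did not overlap, and the fibroblast replicates spanned both monocyte values. The monocyte averages include 65892493, where monocytes had 0 of 16 and 0 of 6 methylated reads and fibroblasts 26 of 28 and 18 of 18. This CpG lowers the monocyte averages, so the overlap of the somatic cell types does not hold CpG by CpG. Of the 11 CpGs, 10 were DMCs for monocytes against sperm (18.8% of all CpGs tested) and all 11 for fibroblasts against sperm (28.3%). EdgeR called the same numbers, against 12.4% and 14.8% of all CpGs. There were 8 hypo-DMCs (8.98% of all CpGs), in a run from 65892299 to 65892442 (144 bp). Of the runs over the genome, 34.4% held as many hypo-DMCs or more.

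Before that run, from 65891987 to 65892283, the group was shallow in sperm and monocytes. At 65892001 the sperm libraries had 2 of 7 and 0 of 7 methylated reads, the fibroblasts 17 of 17 and 9 of 10. At the 7 other positions covered by 7 reads in both sperm libraries, the first library had 1 methylated read and the second 0, which gives 14.3% and 0%. Monocytes were covered there by 3 or 4 reads per library, nearly all of them methylated. Restricting the comparison of fibroblasts with sperm to the 4 libraries concerned, 20 CpGs of the group could be tested and all 20 were DMCs, against 28.4% of all CpGs so tested.

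The borders of SYCP3 were poorly placed. On the right, the last CpG below 20% in sperm was 65892493 and the next measured one 65916416, with 10 of 10 sperm reads methylated, 27.4 kb from the drawn region. Single sperm reads in between were methylated: 1 of 1 at 65896878, 2 of 2 at 65897104 and 4 of 4 at 65916211. If that 1 read is taken, the right border lay in the 4.38 kb between 65892497 and 65896878. On the left, the next measured group, 65851728 to 65853332, lay 35.3 kb away and was unmethylated in all cell types, with averages from 0 to 3.76% over 40 CpGs. Beyond it, 65848010 had 27 of 28 sperm reads methylated.

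The somatic cell types differed in how even their methylation was along the regions. In the DDX4 region, 3 and 4 of the 18 CpGs lay between 20 and 80% in the fibroblast libraries, against 1 in each monocyte library. In the SYCP3 region this held for 6 and 11 CpGs in fibroblasts and again for 1 in each monocyte library. Such intermediate values were also more frequent in fibroblasts over all CpGs covered in all 6 libraries, at 26.4% and 26.0%, against 11.3% and 11.7% in monocytes. Averaged over the region, monocytes exceeded fibroblasts by 9.94 points at DDX4 (97.1% ± 0.951 against 87.2% ± 0.0741, SD, n = 2 each) and by 13.8 points at SYCP3 (92.3% ± 1.32 against 78.6% ± 5.15). The exact permutation test on these means gave p = 0.333 for both, the smallest that 2 against 2 libraries allow.

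At DDX4 this difference lay at the right end of the region. Over the first 15 CpGs, 23444347 to 23444669, monocytes averaged 97.2% and 99.1% and fibroblasts 96.3% and 94.2%, a difference of 2.90 points with no DMC among them. Over the last 3 CpGs, 23444994 to 23445067, monocytes averaged 92.6% and 91.1% and fibroblasts 41.0% and 52.4%, a difference of 45.1 points. Sperm had no methylated read in either stretch. The largest difference was at 23444994, where monocytes had 18 of 18 and 10 of 10 methylated reads, fibroblasts 4 of 13 and 11 of 28, and sperm 0 of 9 and 0 of 19. The difference of 63.4 points was called by the likelihood-ratio test (adjusted p = 1.88e-08) and by edgeR's quasi-likelihood test (adjusted p = 0.00880). The pooled fibroblast value of 36.6% had a 95% Clopper-Pearson interval of 22.1 to 53.1%.

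The 2 CpGs that followed were less clear. At 23445013 monocytes had 17 of 18 and 8 of 8 methylated reads and fibroblasts 8 of 13 and 13 of 28, a difference of 44.9 points that was called. At 23445067 the fibroblast libraries themselves were 4 of 13 and 20 of 28, the largest difference between fibroblast replicates in the block (40.7 points, adjusted p = 0.217 in the likelihood-ratio test). Both outermost positions of the region were covered in fewer libraries. At 23444293 the fibroblast libraries had 3 of 4 and 2 of 5 methylated reads, too few to place the value. At 23445093 the first fibroblast library had 3 of 11.

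At SYCP3 the CpGs that were lower in fibroblasts were spread over the region. Monocytes exceeded fibroblasts at 3 DMCs, by 44.2 points at 65888681, 29.7 points at 65888904 and 38.0 points at 65888907. At the first of these, monocytes had 20 of 21 and 14 of 14 methylated reads and fibroblasts 5 of 13 and 13 of 21. At 65888907 they had 19 of 22 and 20 of 22 against 21 of 40 and 18 of 37. The 2 fibroblast libraries differed most at 65888765, with 24 of 25 and 18 of 33 methylated reads, a difference of 41.5 points that was not called (adjusted p = 0.0158, likelihood-ratio test). At the last position, 65888982, fibroblasts had 10 of 27 and 4 of 19 methylated reads. Of the 18 CpGs of each region, monocytes and fibroblasts thus differed at 2 (11.1%) at DDX4 and 3 (16.7%) at SYCP3, against 17.0% of all CpGs tested in this comparison.

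**Figure D3:**
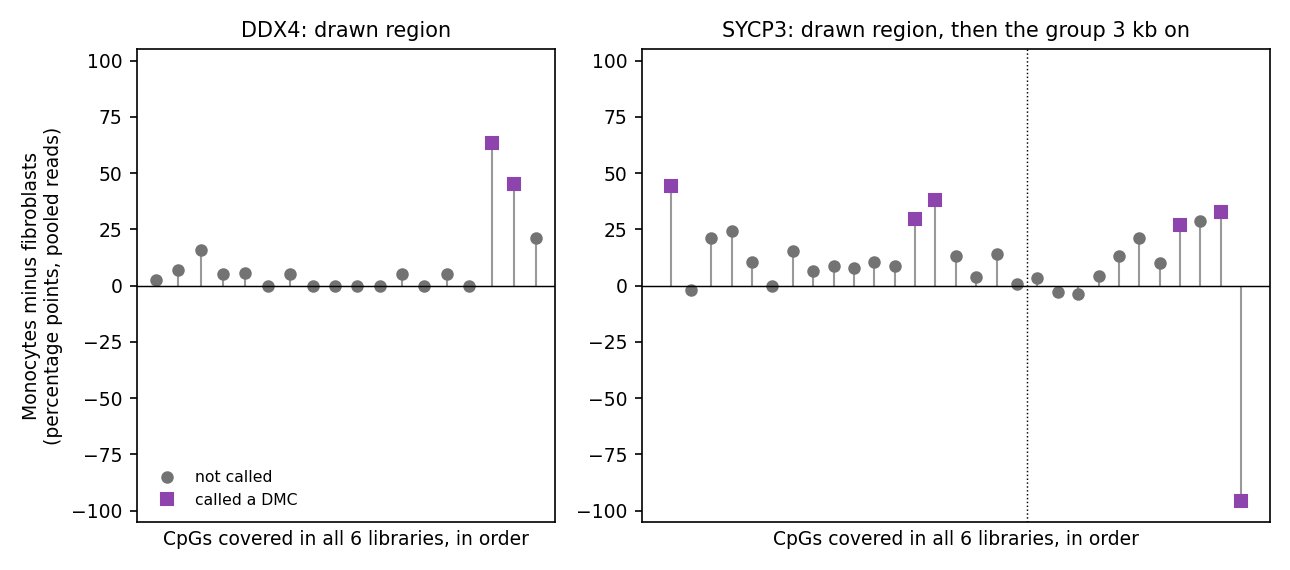
Difference between monocytes and fibroblasts in percentage points, from reads pooled over the 2 libraries of each, for the CpGs covered in all 6 libraries of the DDX4 region (left) and of the SYCP3 region and the group 3.0 kb on (right, after the dotted line), in order along the chromosome. Squares are DMCs. At DDX4 the 2 DMCs lie at the right end, and at SYCP3 the last CpG of the further group has a difference of -95.7 points while all other DMCs have monocytes higher.

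A position at the end of the further SYCP3 group went the other way. At 65892493 monocytes had 0 of 16 and 0 of 6 methylated reads, fibroblasts 26 of 28 and 18 of 18, and sperm 2 of 21 and 0 of 37. The monocyte minus fibroblast difference was -95.7 points (adjusted p = 1.73e-15 by the likelihood-ratio test and 8.34e-05 by edgeR). The pooled monocyte value of 0 of 22 has an upper 95% Clopper-Pearson limit of 15.4%. Monocytes were methylated at both neighbouring positions, with 28 of 28 and 12 of 12 reads at 65892464 and 10 of 12 and 6 of 6 at 65892497. Such a jump is uncommon: 0.261% of the 1255566 pairs of neighbouring CpGs up to 50 bp apart differed by 80 points or more in monocytes.

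Elsewhere within 100 kb, the loci held groups with other patterns. The first group of DDX4, 23373232 to 23373576 and 70.7 kb before the region, was the opposite of the DDX4 region. Over its 10 CpGs covered in all 6 libraries, sperm averaged 96.2% and 97.3%, monocytes 36.6% and 30.4%, and fibroblasts 4.94% and 3.82%. The 3 cell types did not overlap in their averages. All 10 CpGs were DMCs with sperm higher than each somatic cell type, against 5.48% of CpGs tested for monocytes and 16.2% for fibroblasts. With edgeR all 10 were called for fibroblasts and 5 for monocytes, against 14.8% and 12.4% of all CpGs in either direction. EdgeR called 0 of the 10 between monocytes and fibroblasts, against 3.9% of all CpGs. By the likelihood-ratio test monocytes exceeded fibroblasts at 4 of the 10, against 13.7% of all CpGs tested. The other 6 were sperm-specific with sperm higher, a class that held 2.43% of all CpGs tested and no CpG of the SYCP3 locus. At 23373238, for example, sperm had 12 of 12 methylated reads in both libraries, monocytes 10 of 17 and 11 of 19, and fibroblasts 1 of 18 and 0 of 29.

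The last group of DDX4, 23540953 to 23543549 and 95.9 kb after the region, was lower in sperm than in the somatic cells. In pooled reads, sperm ranged from 3.33% at 23543187 to 25.8% at 23543317 over its CpGs covered in all 6 libraries. Over the 8 CpGs covered in all 6 libraries, sperm averaged 15.1% and 12.2%, monocytes 82.0% and 84.4%, and fibroblasts 61.7% and 53.6%. The order of the 3 cell types held in every library. All 8 CpGs were DMCs for monocytes against sperm (18.8% of all CpGs tested), 7 for fibroblasts against sperm (28.3%) and 3 between monocytes and fibroblasts (17.0%), the last with monocytes higher. With edgeR 5 were called for monocytes against sperm (12.4% of all CpGs) and 2 for fibroblasts against sperm (14.8%), 23543187 and 23543317. Between monocytes and fibroblasts it called 0 (3.9% of all CpGs). Among these members, 4 were hypo-DMCs (8.98% of all CpGs tested), and 55.8% of the runs over the genome held as many or more. The position 23543317 was read most, and sperm had 85 of 325 and 123 of 481 methylated reads, monocytes 332 of 362 and 338 of 372, fibroblasts 277 of 344 and 360 of 484. This group also held 17 positions with more than 500 reads in some library, from 23541842 to 23543305, which SYCP3 did not have. Depths of this order differ from those elsewhere at the locus, and their part in the values of the group was not tested.

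**Figure D4:**
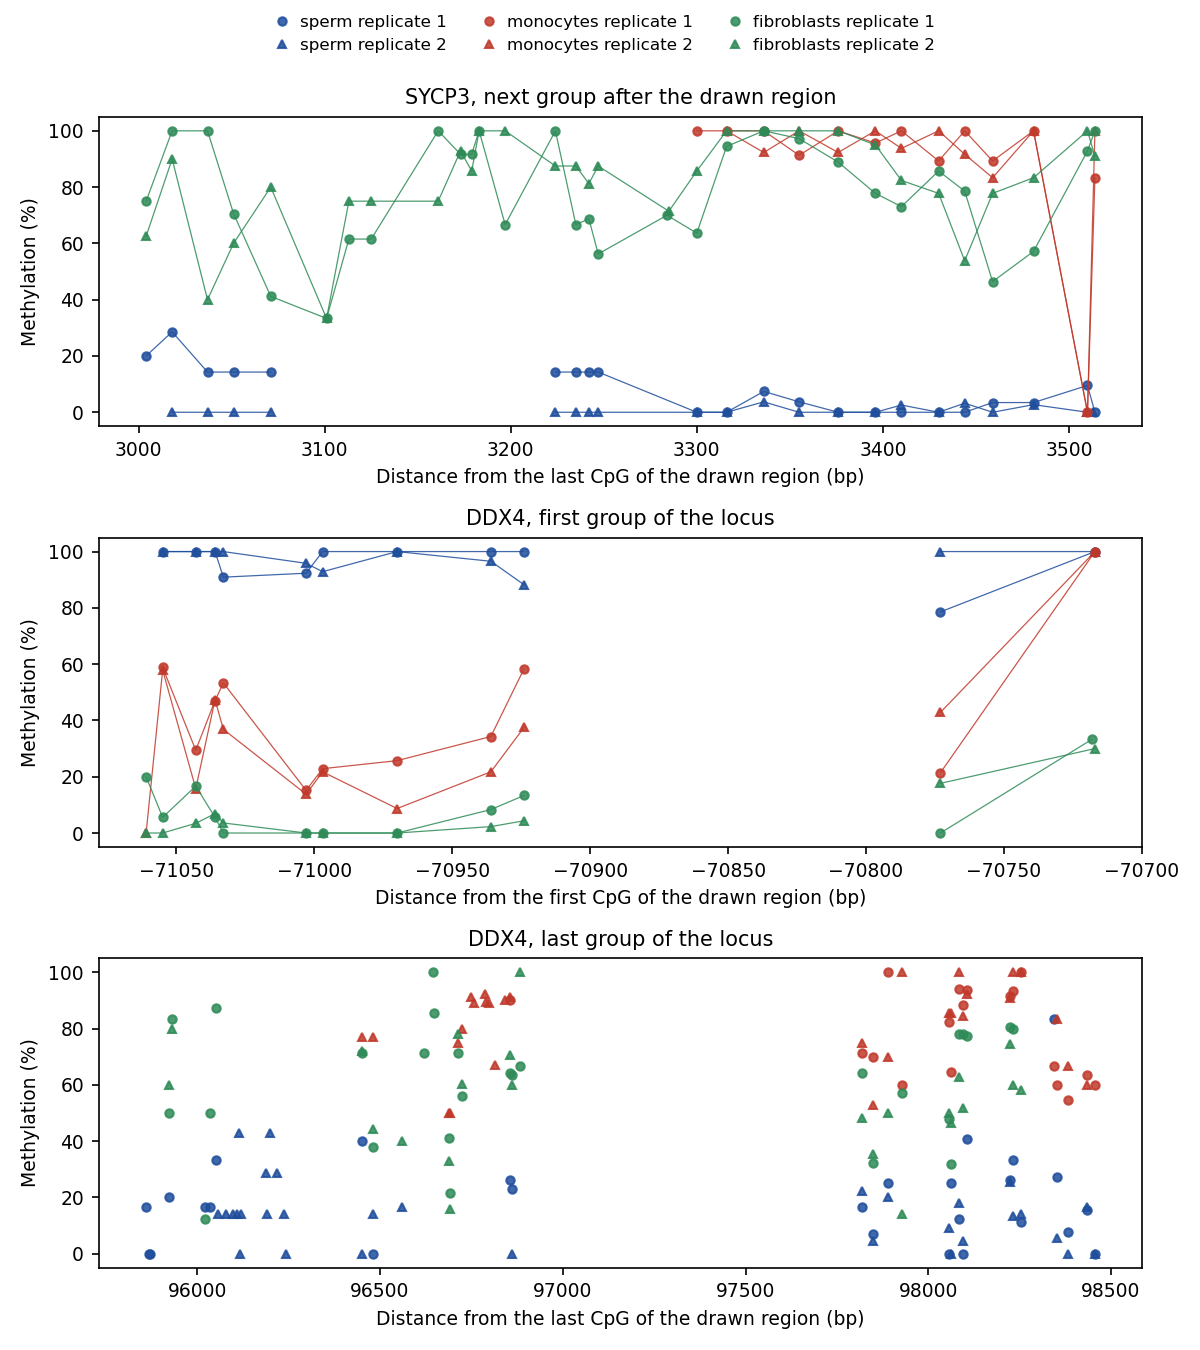
Methylation (%) of each CpG covered by 5 to 500 reads in a library, against the distance in bp from the drawn region, for the SYCP3 group 3.0 kb on, the DDX4 group 70.7 kb before and the DDX4 group 95.9 kb after the region. Sperm is lowest in the first and last of these groups and highest in the second, and the monocyte points at the end of the SYCP3 group drop to 0% at 1 position.

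The remaining groups were mostly methylated in sperm and monocytes, and fibroblasts were lower in some of them and not in others. At 65937442 to 65937640, 48.5 kb after the SYCP3 region, sperm was at 100% in both libraries over 2 CpGs, monocytes at 97.2% and 95.5%, and fibroblasts at 53.8% and 64.3%. Both were DMCs between monocytes and fibroblasts, against 17.0% of all CpGs tested, and edgeR called 0 of them, against 3.9%. At 65967710 to 65968416, 78.7 kb on, averages over 4 CpGs ranged from 87.5 to 98.0% in the 6 libraries and no CpG was a DMC. At 23417778 to 23417896, 26.4 kb before the DDX4 region, sperm averaged 100% and 97.0% over 3 CpGs, monocytes 100% and 88.9%, and fibroblasts 86.6% and 79.8%. At 23520624 to 23521101, 75.5 kb after the DDX4 region, monocytes were the lowest, with 87.5% and 85.3% over 3 CpGs, where sperm had 100% and 97.0% and fibroblasts 100% and 98.2%. None of the 3 was a DMC. Monocytes were lower still at CpGs of this group covered in fewer libraries. At 23520922 they had 3 of 5 and 0 of 5 methylated reads, fibroblasts 8 of 8 and 4 of 4, and the second sperm library 6 of 6.

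Counted over all CpGs outside the blocks, sperm exceeded the somatic libraries by 15.4 points at DDX4 (24 CpGs, exact permutation p = 0.133) and by 7.67 points at SYCP3 (7 CpGs, exact permutation p = 0.2), in a test that cannot go below 0.0667. The DDX4 value turned with the weight given to each CpG, since the same difference from pooled reads was -15.6 points (exact permutation p = 0.2).

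Between the blocks and the flanks, DMCs against sperm thus took both directions at DDX4 and almost only 1 at SYCP3. For monocytes against sperm, 26 CpGs were higher and 10 lower in monocytes at DDX4, against 28 and 0 at SYCP3. For fibroblasts against sperm the counts were 25 and 11, against 30 and 2. Over all CpGs tested, 13.3% were higher and 5.48% lower in monocytes, and 12.1% higher and 16.2% lower in fibroblasts. Monocytes and fibroblasts differed at 9 CpGs of each locus, with monocytes higher at 9 of them at DDX4 and 7 at SYCP3, and lower at 0 and 2, where 13.7% of all CpGs tested were higher and 3.3% lower. DMCs of all 3 comparisons numbered 9 at DDX4 and 5 at SYCP3, against 2.63% of all CpGs tested.

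The calls were repeated with edgeR's quasi-likelihood test, with 1 dispersion for all CpGs estimated from the spread between libraries. It called 28 CpGs at each locus for monocytes against sperm, against 12.4% of all CpGs tested, and 29 at DDX4 and 28 at SYCP3 for fibroblasts against sperm, against 14.8%. Hypo-DMCs numbered 19 at DDX4 and 27 at SYCP3, against 6.33% of all CpGs. Between monocytes and fibroblasts edgeR called 1 CpG at each locus, 23444994 and 65892493, against 3.9% of all CpGs. The other CpGs given above as DMCs between these cell types were not called by edgeR.

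Differences between the fibroblast replicates were of the same order as those between the somatic cell types at SYCP3. In the drawn region the median absolute difference over the 18 CpGs was 10.2 points between fibroblast replicates, 4.65 points between monocyte replicates and 10.4 points between monocytes and fibroblasts. At DDX4 these medians were 3.85, 0 and 5.26 points. Replicate differences come from single libraries and those between cell types from pooled reads, so that the former carry more counting error. No CpG of either locus was called between the 2 libraries of any cell type, where the share called over the genome was 0.309% for sperm, 0.173% for monocytes and 0.693% for fibroblasts. At an unadjusted p below 0.05 in the likelihood-ratio test, 1 CpG differed between sperm replicates and 1 between monocyte replicates at each locus, and 0 of these by Fisher's exact test. Between fibroblast replicates there were 5 of 89 at DDX4 and 8 of 76 at SYCP3, and 2 and 6 by Fisher's exact test. The share of all CpGs that passes this unadjusted cut was not determined, so these counts cannot be read as a trait of the loci.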

How the data were processed

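RRBS was analysed in 2 sperm, 2 monocyte and 2 fibroblast libraries. The authors selected MspI fragments of 40 to 290 bp, sequenced both ends over 75 bp and mapped the reads to UMD3.1. Monocyte libraries had 12 PCR cycles and the others 14. The submitters' processing notes name Trim Galore 0.3.7, Bismark 0.14.3 and methylKit. The deposited tables give the coverage of each CpG as read counts, without normalization, and the authors gave its methylation as a percent of these reads. Positions are those of the tables.

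Methylated reads were taken as the nearest whole number to coverage times percent. Tests used reads summed over replicates, with Benjamini-Hochberg adjustment over 1580644 CpGs covered by 5 to 500 reads in all 6 libraries. This minimum sets the precision, and intervals are Clopper-Pearson. Python 3.11.15, numpy 2.4.6, scipy 1.17.1, R 4.3.3 and edgeR 4.0.16 were used, and tests were checked on simulated data. Library means were compared by exact permutation. Groups of CpGs were split at gaps over 1000 bp. Alternatives were Fisher's exact test, edgeR, a replicate block, at least 10 reads, merging of positions 1 bp apart, other thresholds and leaving out each library. Runs with at least 1 sperm read and tests on 4 libraries were added after seeing the data.

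The regions and the rules were chosen with earlier results of these data known. The CpGs named by rule were block borders, ends of hypo-DMC runs, the largest differences and runs of at least 5 neighbouring DMCs. Other CpGs were named after their values were seen. Further germline genes were not analysed here, since no annotation of this build was used. P-values over pooled reads do not include the spread between animals.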

Additional observations from a re-analysis of the deposited data

Results flagged for a closer look

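Of the 165 CpGs tested, 18 were called between monocytes and fibroblasts, 9 at each locus. This is 10.9% of them, below the 17.0% called over all CpGs tested, and each is listed only as a CpG at which the somatic cell types differed. Differences are monocytes minus fibroblasts in points, from pooled reads and the likelihood-ratio test. In the first DDX4 group they were 56.2 at 23373238, 40.8 at 23373257, 41.9 at 23373260 and 45.2 at 23373369. In the DDX4 region they were 63.4 at 23444994 and 44.9 at 23445013. In the last DDX4 group they were 34.9 at 23543151, 26.8 at 23543176 and 32.3 at 23543324.

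At SYCP3 the region held 44.2 at 65888681, 29.7 at 65888904 and 38.0 at 65888907. The group 3.0 kb on held 26.8 at 65892427, 32.6 at 65892464 and -95.7 at 65892493. The group 48.5 kb on held 31.8 at 65937481 and 40.7 at 65937605. At 65851907, in the group that was otherwise unmethylated, the difference was -30.0 points, from 0 of 29 reads in monocytes and 1 of 13 and 8 of 17 in fibroblasts, so that 1 fibroblast library carried it. With edgeR, which takes the spread between libraries into account, 23444994 and 65892493 were called and the other 16 were not. Over all CpGs edgeR called 3.9% in this comparison.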

How the results depend on the processing

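With each library left out in turn, the somatic minus sperm difference of the regions ranged from 90.3 to 93.8 points at DDX4 and 82.5 to 88.6 at SYCP3, and monocytes minus fibroblasts from 9.27 to 10.6 and 10.1 to 17.4. The sperm-specific hypo-DMCs ranged from 18 to 24 and 23 to 25, the monocyte against sperm DMCs from 32 to 36 and 28 to 28, and the fibroblast against sperm DMCs from 31 to 36 and 28 to 32. The monocyte against fibroblast DMCs ranged from 4 (without the first monocyte library; 5 without the second fibroblast library) to 9 at DDX4 and from 5 (without the second monocyte library) to 9 at SYCP3. The run below 20% in sperm was 17420 bp in each case at DDX4 and 37225 (without the second sperm library) to 40769 bp at SYCP3, and the flank differences were 11.3 to 19.4 and 5.20 to 10.2 points.

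The monocyte against fibroblast DMCs, 9 at each locus, were 2 and 1 at a difference of at least 50 points. They were 1 and 1 with edgeR (3.9% of all CpGs), and 3 and 4 with at least 10 reads in all libraries. For the alternatives of this section other than edgeR, the share of all CpGs called was not determined. Their counts can therefore not be read as a trait of the loci. With at least 10 reads, DDX4 had 3 hypo-DMCs (20 before), 11 monocyte and 11 fibroblast DMCs against sperm (36 each before), fewer CpGs being tested. Its drawn region then rested on 1 CpG, with a somatic minus sperm difference of 64.7 points and 27.2 points between monocytes and fibroblasts. The DDX4 run was 801 bp when ended at gaps over 1000 bp and 8957 bp with at least 1 pooled sperm read. With at least 10 reads in both sperm libraries it was 97984 bp, from 23444959 to 23542942, across a gap of 80.3 kb without CpGs of that depth. The cut removed methylated sperm CpGs in this gap, such as 23520639 (8 of 8 and 7 of 7 reads) and 23520683 (9 of 9 and 11 of 11). The longer run is thus no evidence of a longer unmethylated block. The SYCP3 run was 37225 bp below 10% and 303 bp when ended at gaps. The DDX4 flank difference reversed to -15.6 points with pooled reads. Single CpGs named lost their call, without changing direction, in 68 cases, all of them differences between monocytes and fibroblasts. The first and last hypo-DMC of each locus kept their calls against sperm in every alternative.

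Replicate numbers did not pair animals: the deviations of same-numbered libraries correlated at 0.00421, 0.00159 and -0.00325 over 1580644 CpGs. With the number as a replicate block, hypo-DMCs were 23 and 23 and monocyte against fibroblast DMCs 6 and 8, and the differences of the drawn regions were as before. Borders lie in unmeasured sequence.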

Other observations

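The tables list some CpGs 1 bp apart in different libraries, as would positions given on either strand of 1 CpG. Over the genome, replicates listed at the same position differed by at least 25 points at 2.92% of 2025340 CpGs in sperm, 4.44% of 2036443 in monocytes and 12.1% of 2283809 in fibroblasts. For positions 1 bp apart these shares were 6.18% of 66737, 7.91% of 81363 and 20.7% of 130110. At SYCP3 the libraries listed at 65848113 were the second sperm library with 5 of 19 methylated reads and both fibroblast libraries with 4 of 27 and 6 of 30. Those listed at 65848114 were the first sperm library with 12 of 12 and the monocytes with 11 of 11 and 13 of 13. Neither position enters the tests above, since neither was covered in all 6 libraries.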
